A study of Mus musculus with 14 samples.

Results

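The tripartite motif (TRIM) genes encode a family of ubiquitin ligases, and 9 of its mouse members that are linked to the type I interferon response were followed in activated CD8 T cells from Morrbid-/- and wild-type mice. They were Trim12a, Trim12c, Trim30a, Trim30d, Trim34a, Trim14, Trim21, Trim25 and Trim26, taken by gene symbol from both deposited tables. All 9 were present in both, among 12843 genes in the table with IFN-beta and 14732 in the table without. All 9 also had a mean normalized count of at least 10 in both tables, the minimum for testing, as did 9964 genes in the table with IFN-beta and 9290 in the other.

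Naive CD8 T cells of C57BL/6 mice, sorted from the spleen as CD62L-high and CD44-low cells, were activated in culture for 6 h. Every library came from cells given plate-bound anti-CD3 and soluble anti-CD28, each at 1 µg/mL, which stand in for the signals of the antigen receptor and of costimulation. The groups were Morrbid-/- with 20 ng/mL IFN-beta (4 libraries), wild type with IFN-beta (4), Morrbid-/- without IFN-beta (3) and wild type without IFN-beta (3). Morrbid is a long noncoding RNA gene, and the labels give neither how the Morrbid-/- allele was made nor whether libraries of a group came from separate animals, so p-values measure the spread between these libraries, which may be technical.

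Most TRIM proteins carry a RING domain that transfers ubiquitin, followed by B-box and coiled-coil regions and often a SPRY domain that binds the target. Type I interferons act through the receptor chains Ifnar1 and Ifnar2, the kinases Jak1 and Tyk2, and the transcription factor complex ISGF3, which holds IRF9. ISGF3 binds a DNA element built from repeated GAAA in the promoters of its target genes, and many TRIM genes are such targets. In mouse, Trim12a, Trim12c, Trim30a, Trim30d and Trim34a sit in a cluster of gene copies on chromosome 7 that is related to human TRIM5, a restriction factor of retroviruses.

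The promoters of the members are shown first, to let the element shared by most of them and the likeness of the copies be seen; whether either relates to the values that follow was not tested. RefSeq promoter windows of GRCm38.p6, from 250 bases before to 50 bases after each gene start, were found for 8 of the 9 members and held 9 starts, with none for Trim14. The letters GAAA NN GAAA, searched as one word of 10 bases on both strands with N for any base, were present in 7 of these 8 members, Trim25 being without them. Among all RefSeq promoter windows of this length, 1131 of 32851 (3.44%) held the motif, or 1079 of 27025 genes (3.99%). The letters TTCNNNGAA, searched beside it, were in 0 of the 8 members and in 8.3% of all windows. Capitals mark the matched letters in each stretch below, read 5′ to 3′ on the strand of the gene, where capitals that begin with TTTC are a match on the opposite strand.
Trim12a promoter, chr7:104315466-104315525, minus strand: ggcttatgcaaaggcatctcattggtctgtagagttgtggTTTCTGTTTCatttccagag
Trim12c promoter, chr7:104353329-104353418, minus strand: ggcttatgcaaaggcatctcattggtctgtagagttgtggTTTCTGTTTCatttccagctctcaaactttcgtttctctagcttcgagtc
Trim30a promoter, chr7:104465180-104465269, minus strand: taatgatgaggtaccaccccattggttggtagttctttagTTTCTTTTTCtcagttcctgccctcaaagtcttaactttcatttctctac
Trim30d promoter, chr7:104507841-104507930, minus strand: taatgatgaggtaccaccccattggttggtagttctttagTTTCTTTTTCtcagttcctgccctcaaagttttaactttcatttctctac
Trim34a promoter, chr7:104244427-104244486, plus strand: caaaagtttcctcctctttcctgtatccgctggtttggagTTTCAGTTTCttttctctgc
Trim21 promoter, chr7:102565453-102565509, minus strand: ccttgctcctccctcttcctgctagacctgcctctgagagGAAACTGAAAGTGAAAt
Trim26 promoter, chr17:36836946-36837041, plus strand: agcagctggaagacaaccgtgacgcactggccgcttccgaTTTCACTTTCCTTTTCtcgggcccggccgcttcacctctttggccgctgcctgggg

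The Trim30a and Trim30d stretches are identical at 89 of 90 bases, and the Trim12a and Trim12c stretches at 58 of 60. Positions count from the start in the RefSeq promoter table, which can lie inside the outermost annotated end of the gene. Matches began 29 bases before the start in Trim12c, 36 before it in Trim30a and 41 before it in Trim30d, and 10 bases after the start in both Trim12a and Trim34a. Trim30a has a further RefSeq start, whose match began 2 bases after it. Trim21 held a pair of overlapping matches, from 13 and 19 bases after its start, and these were the only ones on the strand of the gene. In Trim26 a pair of overlapping matches lay farther out, from 160 and 154 bases before the start. A match of letters describes the sequence and does not show that a factor binds there.

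**Figure D1:**
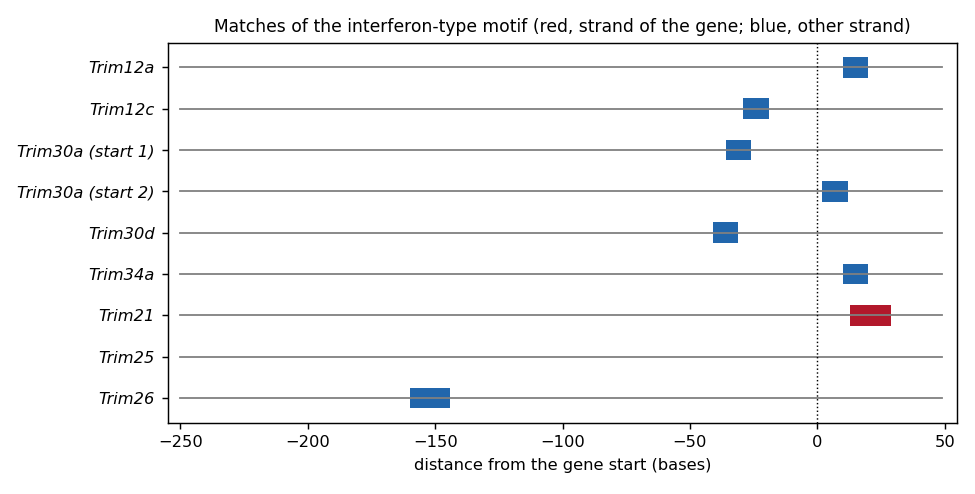
Matches of GAAA NN GAAA in the promoter windows of the members, plotted as distance in bases from the gene start, with red boxes on the strand of the gene and blue boxes on the other strand. The matches of the chromosome 7 copies lie within 41 bases of the start, and those of Trim26 lie 160 and 154 bases before it.

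In GRCm38.p6, Trim34a lies on the plus strand at chr7:104244448-104262244. Trim12a (chr7:104299893-104315558), Trim12c (chr7:104338754-104353358), Trim30a (chr7:104409025-104465193) and Trim30d (chr7:104470014-104507853) follow on the minus strand. Trim21 lies on the same chromosome, outside the cluster, at chr7:102557920-102565482 on the minus strand. Trim14 is at chr4:46505072-46536150 on the minus strand, Trim25 at chr11:88999403-89020294 on the plus strand and Trim26 at chr17:36837123-36859398 on the plus strand. The RefSeq annotation overlaps Trim12a with Gm15133, Trim12c with Gm36430, Trim30a with Gm25405, Trim30d with Gm16464, Trim14 with Gm16731, Trim25 with Gm11496 and Trim26 with Gm25973. It overlaps Trim34a and Trim21 with no other gene.

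Copies can share reads, so the exact 75-base stretches, the read length, that a member's GENCODE transcripts have in common with another gene's were counted. For Trim34a they made up 48.6%, of which Trim34b held 29.5% and Gm47248 held 19.0% of the stretches. For Trim14 they made up 31.9%, with 28.6% in the transcripts of Nans. For Trim12c they made up 17.3%, with 12.8% in Trim5 and 2.6% in Trim12a. Trim12a (5.58%), Trim30d (5.4%, nearly all in Trim30a) and Trim30a (4.98%, all in Trim30d) shared less. Trim26 shared 0.569%, and Trim21 and Trim25 shared 0 stretches. How the authors counted reads that fit several genes, and whether strand was used, is not given in the sources used here. The separate values of the copies, of Trim14 and of genes that overlap another are therefore uncertain to that extent.

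The library labels could not be checked with Morrbid itself. Morrbid is listed as Gm14005 and had 7, 4 and 7 reads in the libraries labelled Morrbid-/- and 2, 4 and 2 reads in wild-type libraries without IFN-beta, which goes against the label. No gene of that symbol was listed with IFN-beta. Recovered reads per library ran from 5788070 to 7355337 with IFN-beta and from 1747634 to 2963149 without it. All 7 CD8 T cell markers were present, with summed normalized counts of 9409 to 11160 in libraries labelled Morrbid-/- and 10080 to 11050 in wild type with IFN-beta, and of 3932 to 4472 and 4215 to 5062 in those genotypes without it. The mitochondrial 16S rRNA took 9.0 to 12% of reads with IFN-beta. Without IFN-beta it took 18.9, 12.8 and 11.6% in libraries labelled Morrbid-/- and 18.1, 16 and 12.5% in wild type.

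Markers of other cells were low, and 2 lists were apart by genotype, dendritic cell markers in both stimulations and monocyte or macrophage markers with IFN-beta. With IFN-beta, 2 of 6 dendritic cell markers were present and summed to 44.0 to 52.2 normalized counts in libraries labelled Morrbid-/- and 6.14 to 25.7 in wild type, nearly all of it Zbtb46. Without IFN-beta, 4 of 6 were present and summed to 27.4 to 34.8 in libraries labelled Morrbid-/- and 17.0 to 25.2 in wild type. B cell markers (2 of 6 present) summed to 12.6 to 28.4 in libraries labelled Morrbid-/- and 9.34 to 18.9 in wild type with IFN-beta, and to at most 5.24 and 5.36 in those genotypes without it. Monocyte or macrophage markers (2 of 7 with and 4 of 7 without IFN-beta) summed to 17.4 to 35.1 in libraries labelled Morrbid-/- and 13.3 to 16.4 in wild type with IFN-beta, and to 10.1 to 27.5 and 10.4 to 22.4 in those genotypes without it. Csf1r was at 0 in wild type without IFN-beta. Markers of CD4 or regulatory T cells stayed at or below 19.2 and those of NK cells at or below 8.32. Without IFN-beta, those of erythroid cells stayed at or below 1.04, and Klra8, Ncr1, Zbtb7b and Hba-a2 were at 0. The part of these markers in the results below was not tested. In bulk RNA, more cells of a type and more RNA per cell cannot be told apart.

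Without IFN-beta, no member passed the test between genotypes, and most had their higher values in the libraries labelled Morrbid-/-. Of the 9 members, 8 had a positive log2 difference, Trim14 being the exception, and their median was 0.22, against -0.006 over all 9290 genes tested. By limma on log2(normalized count + 1), with Benjamini-Hochberg adjustment over all genes tested, 0 of 9 members were called at an adjusted p under 0.05, beside a background of 0.635% of genes (0.538% higher and 0.0969% lower). At an unadjusted p under 0.05, Trim12a, Trim30a, Trim30d, Trim34a and Trim21 would have passed, beside 567 of all 9290 genes tested. On the recovered reads, edgeR's quasi-likelihood test and DESeq2 also called 0 members. One limma fit of all 14 libraries called 3, Trim30d (adjusted p = 0.00416), Trim34a (0.00878) and Trim21 (0.0255). That fit called 101 of all 9078 genes higher and 16 lower. It gives each gene a single variance over both stimulations, so it can understate the spread of the libraries without IFN-beta. For Trim30d the unadjusted limma p was 0.0177 in the main fit and 3.07e-05 in this one, at the same log2 difference of 0.51. With the replicate number as a block, limma called Trim30a (adjusted p = 0.0332), beside 94 genes higher and 75 lower. In 6 of 9 members the genotypes did not overlap, with the libraries labelled Morrbid-/- higher, beside 5.53% of all genes in that direction, 5.39% in the other and 10.9% in either. The members share their libraries, so these 6 are not separate observations.

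Among the chromosome 7 copies, Trim34a had the smallest p. It had 147, 175 and 159.64 normalized counts in libraries labelled Morrbid-/-, against 125, 114 and 120.0 in wild-type libraries. The groups did not overlap, and Morrbid-/- replicate 2 was the highest. The log2 difference was 0.42 (SE 0.13; limma adjusted p = 0.308). Trim30d, the copy with the lowest level per kb of exon here, had 59.8, 57.6 and 59.4 in libraries labelled Morrbid-/- and 51.8, 39.5 and 33.6 in wild type, from at most 59 reads in any library. The Morrbid-/- libraries were close together and above all 3 wild-type libraries, and the log2 difference was 0.51 (SE 0.20; adjusted p = 0.624).

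Trim30a, which in mouse cells promotes the degradation of the TAB2 and TAB3 adaptors of NF-kappaB signalling, had 378, 462 and 412 normalized counts in libraries labelled Morrbid-/- and 370.07, 358 and 274 in wild-type libraries. The lowest Morrbid-/- library lay just above the highest wild-type one. Its log2 difference was 0.33 (SE 0.12; limma adjusted p = 0.522). Trim12a had 303, 333 and 293 in libraries labelled Morrbid-/- and 279.79, 247 and 269 in wild type, without overlap, a log2 difference of 0.22 (SE 0.11; adjusted p = 0.813). Trim12c, which in mouse cells works with the ligase TRAF6, had 300.05, 271 and 296 in libraries labelled Morrbid-/- and 286, 264 and 225 in wild type. Its groups overlapped, with a log2 difference of 0.17 (SE 0.11; adjusted p = 0.912).

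Outside the cluster, Trim21, the cytosolic receptor for the Fc part of antibodies, had 110.49, 141 and 116 normalized counts in libraries labelled Morrbid-/- and 104, 70.8 and 88.7 in wild-type libraries. The groups did not overlap, and the log2 difference was 0.49 (SE 0.16; limma adjusted p = 0.392). Trim25, which ubiquitinates the RNA sensor RIG-I and is also a ligase for ISG15, had 286, 234 and 223 in libraries labelled Morrbid-/- and 222, 212 and 202 in wild type. These did not overlap either, but Morrbid-/- replicate 3 and wild-type replicate 1 were nearly equal, and the log2 difference was 0.22 (SE 0.12; adjusted p = 0.863). Trim14, which lacks the RING domain and acts as an adaptor of the mitochondrial antiviral protein MAVS, had 55.8, 53.7 and 91.1 in libraries labelled Morrbid-/- and 78.7, 82.2 and 61.9 in wild type. Morrbid-/- replicate 3 stood above the rest and the groups overlapped (log2 difference -0.18, SE 0.20; adjusted p = 0.955). Trim26, a ligase that acts on IRF3, averaged 274.6 ± 4.42 in libraries labelled Morrbid-/- and 261.9 ± 21.8 in wild type (SD, n = 3 each), with a log2 difference of 0.07 (SE 0.11; adjusted p = 0.964).

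**Figure D2:**
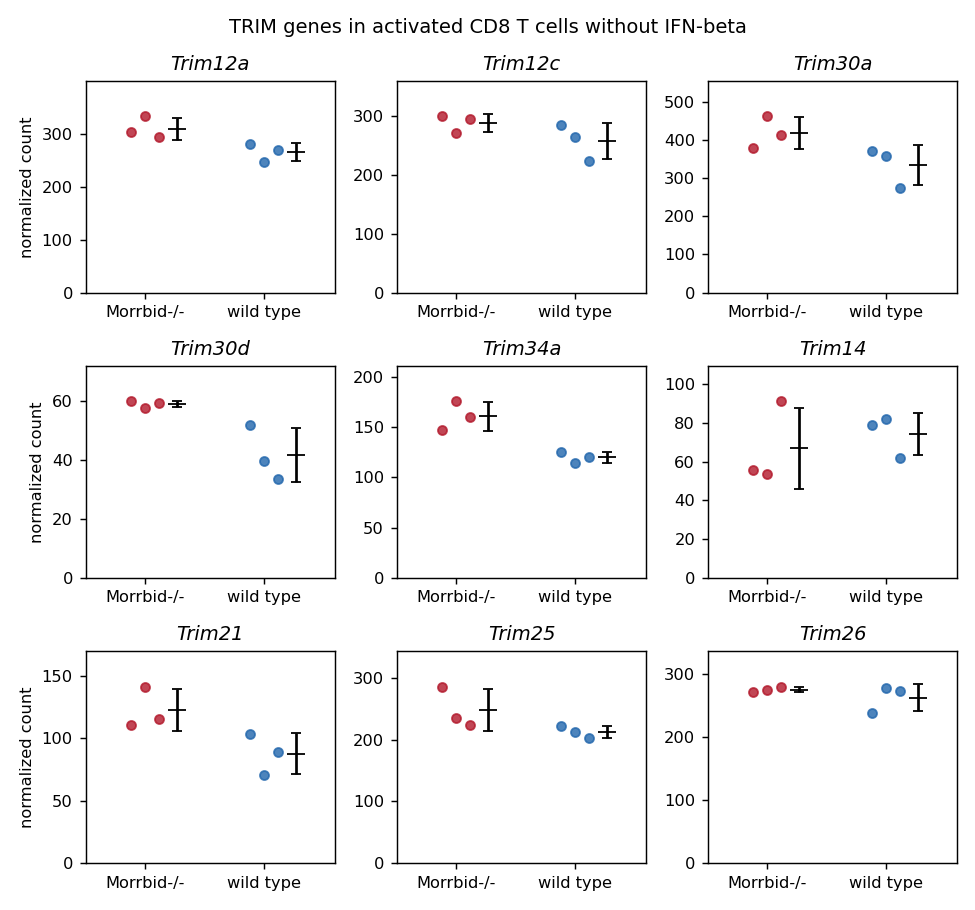
Normalized counts of the 9 members in each library without IFN-beta, with libraries labelled Morrbid-/- on the left and wild type on the right of each panel, points for libraries and bars for the mean ± SD (n = 3 each). The genotypes are apart in 6 members, Trim34a with 147 to 175 in libraries labelled Morrbid-/- against 114 to 125 in wild type, and overlap in Trim12c, Trim14 and Trim26.

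The same differences were taken within libraries of like 16S rRNA share. In the 3 libraries of high 16S rRNA share (1 labelled Morrbid-/- and 2 wild type), the log2 difference was 0.29 for Trim34a, 0.36 for Trim21, 0.39 for Trim30d and 0.05 for Trim30a. In the 3 of low share (2 and 1), it was 0.48 for Trim34a, 0.52 for Trim21, 0.78 for Trim30d and 0.67 for Trim30a. Trim14 was at -0.52 within the high and 0.17 within the low libraries. The other 8 members were positive within both. These splits leave 1 library on a side, so they are values without a test, and they were chosen after seeing the data.

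With IFN-beta, Trim25 was the one member called between genotypes, higher in the libraries labelled Morrbid-/-, at about the share of all genes. It had 4256, 4330.4, 4050.1 and 4028 normalized counts in libraries labelled Morrbid-/-, against 3591, 3947.5, 3661 and 3425 in wild-type libraries. All 4 Morrbid-/- libraries were above all 4 wild-type libraries. Trim25 averaged 4166 ± 150.1 in libraries labelled Morrbid-/- and 3656 ± 218 in wild type (SD, n = 4 each), apart by 0.19 on the log2 scale (SE 0.06; adjusted p = 0.0297 by limma). That made 1 of 9 members called higher, beside 5.25% of all 9964 genes, and 0 called lower, beside 4.84% (10.1% in either direction). The share of members called, 11.1%, was near the 10.1% of all genes called in either direction. The edgeR test gave an adjusted p of 0.0348 and DESeq2 gave 0.0192. The call was lost without Morrbid-/- replicate 1 (adjusted p = 0.0723), Morrbid-/- replicate 2 (0.11), wild-type replicate 1 (0.0768) or wild-type replicate 4 (0.0791). It was also lost without a filter (0.0686), without the trend (0.178), in one fit of all 14 libraries (0.136) and with the 16S rRNA share as a covariate (0.0988). In the same libraries Zbtb46 had 43.1 to 51.3 normalized counts in those labelled Morrbid-/- and 6.14 to 25.7 in wild type, and Cd68 had 17.4 to 34.2 in those labelled Morrbid-/- and 13.3 to 15.3 in wild type. The part of these markers in this result was not tested.

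The chromosome 7 copies had small differences of both signs with IFN-beta, and 0 of 5 were called. Trim30a, the most abundant member, had 18319, 17682, 17414 and 16962 normalized counts in libraries labelled Morrbid-/- and 18342, 17667, 17852 and 17448 in wild type. The groups overlapped, with a log2 difference of -0.02 (SE 0.05; adjusted p = 0.865 by limma) that turned to 0.02 on rescaling to equal totals and to 0.09 on quantile normalization. Trim30d had 4815, 4936, 4796 and 4648 in libraries labelled Morrbid-/- and 4473, 4526, 4567 and 4555 in wild type. The groups did not overlap, but the log2 difference was 0.08 (SE 0.05; adjusted p = 0.328). Trim30d and Trim25 were the 2 members without overlap, both with the Morrbid-/- label higher, beside 7.58% of all genes in that direction, 7.6% in the other and 15.2% in either.

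Trim34a with IFN-beta had 1116, 1065, 1007 and 989 normalized counts in libraries labelled Morrbid-/- and 1200.0, 1214, 1169 and 1088 in wild-type libraries. The lowest wild-type library lay inside the Morrbid-/- range, and the log2 difference was -0.16 (SE 0.06; limma adjusted p = 0.113). Trim12c had 1979, 2289, 2131.5 and 2182.1 in libraries labelled Morrbid-/- and 2446, 2221, 2407 and 2381.5 in wild type. Its groups also overlapped, at -0.14 (SE 0.06; adjusted p = 0.137). Trim12a averaged 1275 ± 68.3 in libraries labelled Morrbid-/- and 1349 ± 22.8 in wild type (SD, n = 4 each), with a log2 difference of -0.08 (SE 0.06; adjusted p = 0.438).

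Trim26 had 2439, 2633, 2442 and 2608 normalized counts in libraries labelled Morrbid-/- and 2286, 2469.9, 2248 and 2143 in wild-type libraries. Only wild-type replicate 2 reached into the Morrbid-/- range. The log2 difference was 0.15 (SE 0.06; limma adjusted p = 0.112), and rescaling to equal totals brought it to 0.19 and past the threshold (adjusted p = 0.0392). Trim21 averaged 2485 ± 153 in libraries labelled Morrbid-/- and 2612 ± 272 in wild type, where replicate 4 was the highest at 3010.3 (log2 difference -0.07, SE 0.07; adjusted p = 0.581). Trim14 averaged 1044 ± 27.6 and 1015 ± 98.2 in those genotypes, with wild-type replicate 1 far below the others at 869.64 (log2 difference 0.04, SE 0.07; adjusted p = 0.758). Leaving that library out turned the Trim14 difference to -0.03.

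**Figure D3:**
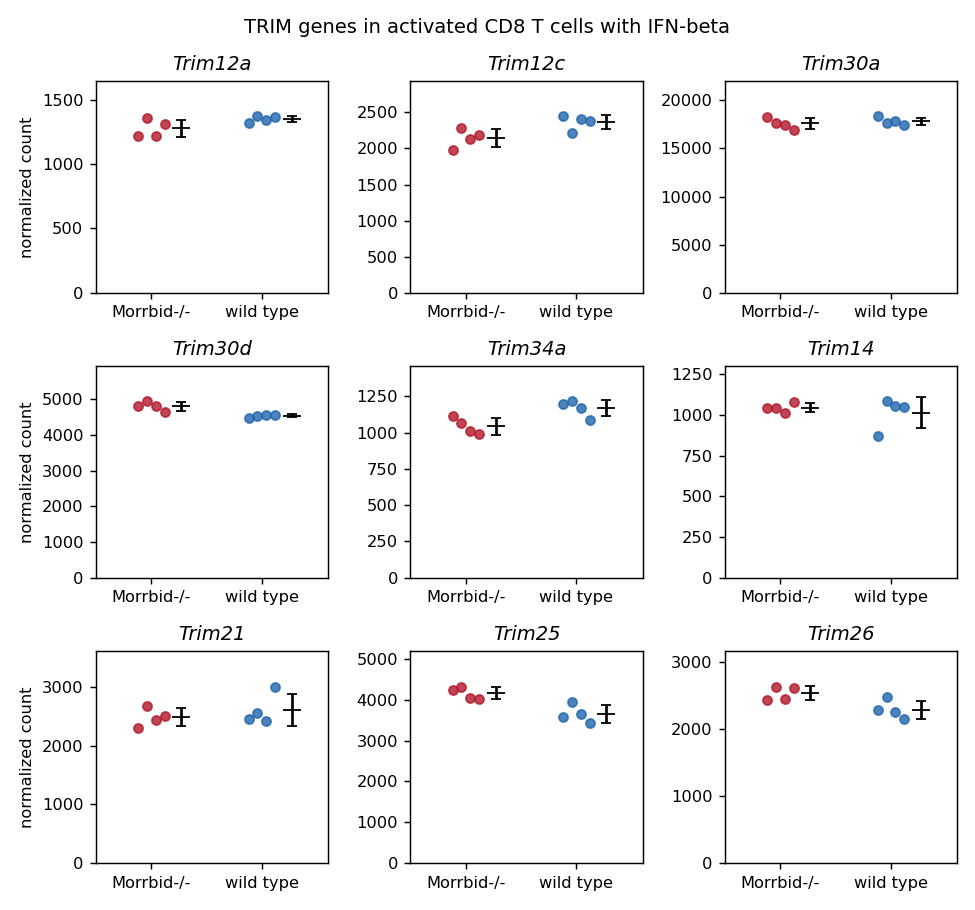
Normalized counts of the 9 members in each library with IFN-beta, with libraries labelled Morrbid-/- on the left and wild type on the right of each panel, points for libraries and bars for the mean ± SD (n = 4 each). Trim25 and Trim30d are without overlap, Trim25 with 4028 to 4330.4 in libraries labelled Morrbid-/- against 3425 to 3947.5 in wild type.

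The genotype effect of Trim34a differed between the stimulations. The contrast was the log2 difference between genotypes with IFN-beta minus that without it, fitted by limma to all 14 libraries at once, over 9078 genes. This fit gives each gene a single variance over both stimulations. Its SE can fall below that of the difference without IFN-beta alone, as for Trim30d (0.13 against 0.20). The p-values of the contrast can therefore be too small. For Trim34a the contrast was -0.58 (SE 0.12; limma adjusted p = 0.0049), from -0.16 with and 0.42 without IFN-beta. It kept an adjusted p of at most 0.0443 in all 26 alternatives run, of which 14 left out 1 library each. With this, 0 of 9 members were called higher and 1 of 9 was called lower, beside 0.441% and 0.892% of all genes (1.33% in either direction).

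The other chromosome 7 copies also had negative contrasts, none past the threshold. Trim30d was at -0.43 (SE 0.13; limma adjusted p = 0.132), Trim30a at -0.35 (SE 0.12; 0.199), Trim12c at -0.31 (SE 0.11; 0.237) and Trim12a at -0.30 (SE 0.11; 0.19). With the 16S rRNA covariate Trim30d passed, at -0.49 (adjusted p = 0.0452). Trim21 was at -0.55 (SE 0.15; adjusted p = 0.0724), and passed by DESeq2 (adjusted p = 0.0434). Without the first wild-type library of the stimulation without IFN-beta, Trim30d reached -0.59 (adjusted p = 0.00128) and Trim21 -0.68 (0.00932), and without the first Morrbid-/- library Trim21 reached -0.62 (0.041). These were the only calls gained, 1 of 14 libraries left out for Trim30d and 2 of 14 for Trim21. Other libraries left out brought Trim30d to as little as -0.29 (limma adjusted p up to 0.281) and Trim21 to -0.41 (up to 0.248). Trim25 (-0.03, adjusted p = 0.955), Trim26 (0.08, 0.828) and Trim14 (0.23, 0.683) had contrasts within 0.23 of 0. The median over the 9 members was -0.31, against 0.009 over all genes tested.

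**Figure D4:**
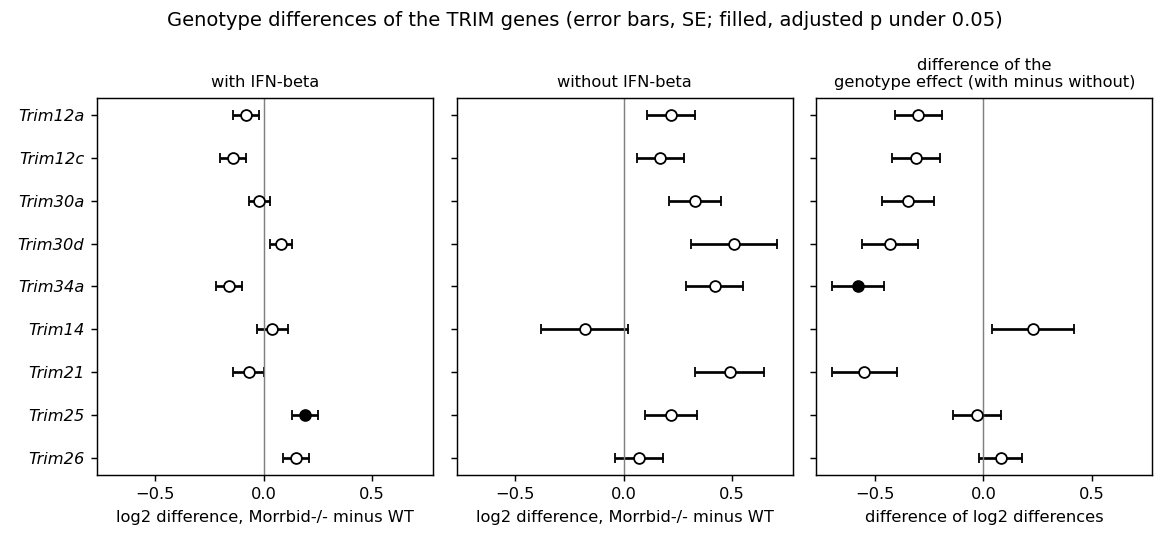
Log2 differences of the 9 members, libraries labelled Morrbid-/- minus wild type, with and without IFN-beta, and the contrast between the stimulations, with bars for the SE and filled points for an adjusted p under 0.05. Filled points are Trim25 with IFN-beta at 0.19 and the contrast of Trim34a at -0.58.

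Sums over the copies do not depend on how reads were split among the copies summed. They would depend on whether shared reads were dropped or counted for each copy, which is not known. Reads shared with genes outside the sums, such as Trim5, Trim34b or Gm47248, also remain. The sums were compared by exact two-sided permutation tests over libraries. Without IFN-beta, the 5 copies summed to 1236 ± 57.2 normalized counts in libraries labelled Morrbid-/- and 1019 ± 95.6 in wild type (SD, n = 3 each), with a log2 ratio of 0.28. The groups did not overlap, and the exact p of 0.1 is the smallest that 3 libraries against 3 allow. The sum of Trim30a and Trim30d had a log2 ratio of 0.34 and that of Trim12a and Trim12c one of 0.19, each also without overlap and with an exact p of 0.1. With IFN-beta, the 5 copies summed to 26860 ± 643 in libraries labelled Morrbid-/- and 27240 ± 418 in wild type (n = 4 each; log2 ratio -0.02, exact p = 0.4), and rescaling to equal totals turned that ratio to 0.02.

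The pair of Trim12a and Trim12c with IFN-beta summed to 3421 ± 192 normalized counts in libraries labelled Morrbid-/- and 3713 ± 81.6 in wild type (SD, n = 4 each; log2 ratio -0.12, exact p = 0.0571). That missed the threshold, the smallest p possible being 0.0286. Without Morrbid-/- replicate 2 the ratio was -0.15 with an exact p of 0.0286, which is also the smallest possible with that library left out. Over all libraries left out in turn, the ratio ran from -0.15 to -0.09. Adjusted over the 6 sums, p was 0.15 or more for every sum. Within the Trim30 pair, Trim30d made up 21.4% ± 0.435 in libraries labelled Morrbid-/- and 20.3% ± 0.466 in wild type with IFN-beta (SD, n = 4 each). These shares did not overlap, and the exact p was 0.0286, or 0.114 adjusted over 4 shares, a comparison added after the values were seen. Without IFN-beta, Trim30d made up 12.4% ± 1.29 and 11.1% ± 1.18 in those genotypes (n = 3 each; exact p = 0.2).

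All 9 members stood at higher RPM, the reads scaled by the library total, in the libraries with IFN-beta than in those without it, in both genotypes. The tables were normalized separately and the settings were not compared by a test. The share of all genes at higher RPM with IFN-beta is not given here, so the count of 9 has no background. The settings also differed in reads per library, in genes listed and in the share of mitochondrial rRNA. The part of these in the ratios was not tested. The ratios, above all the small ones, therefore describe levels and do not by themselves show a response to IFN-beta. Trim30d had 728.8 ± 26.1 RPM with IFN-beta and 25.3 ± 1.22 without it in libraries labelled Morrbid-/-, a ratio of 28.8. In wild type it had 669 ± 9.58 and 17.1 ± 2.96, a ratio of 39.0. Trim30a followed, with ratios of 14.9 in libraries labelled Morrbid-/- and 19.1 in wild type, and Trim21, with 7.16 and 10.6.

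Trim25 (5.97 in libraries labelled Morrbid-/- and 6.16 in wild type) and Trim14 (5.48 and 4.9) came next. Trim26 (3.26 and 3.1), Trim12c (2.63 and 3.27), Trim34a (2.29 and 3.47) and Trim12a (1.46 and 1.81) had the lower ratios. The pairs of copies with near-identical promoter stretches differed in this ratio, Trim12c being above Trim12a and Trim30d above Trim30a in both genotypes. For Trim34a the levels were 158.6 ± 10.01 RPM with and 69.2 ± 8.89 without IFN-beta in libraries labelled Morrbid-/-, and 172.4 ± 8.17 and 49.7 ± 3.20 in wild type.

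**Figure D5:**
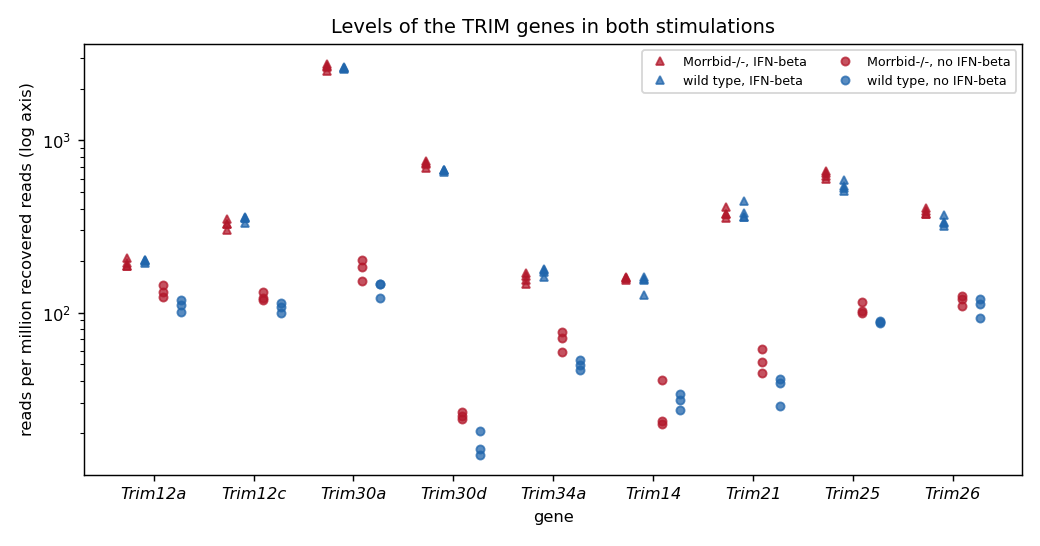
Levels in RPM of the 9 members on a log axis, by genotype and stimulation, with points for libraries (n = 4 per genotype with IFN-beta and 3 without). The levels with IFN-beta lie above those without it in each member, most for Trim30d (728.8 against 25.3 in libraries labelled Morrbid-/-) and least for Trim12a (193.7 against 133).

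Compared per kilobase of annotated exon, Trim30a was the highest member in all 4 groups. With IFN-beta it had 4280 normalized counts per kb in libraries labelled Morrbid-/- and 4336 in wild type, above Trim30d with 1277 and 1206. In libraries labelled Morrbid-/- with IFN-beta, Trim25 (724) and Trim21 (669) followed with overlapping ranges. Then came Trim12c (574), Trim34a (403) and Trim26 (369), the last 2 overlapping, and Trim14 (241) and Trim12a (221), also overlapping. In wild type with IFN-beta, Trim21 (703), Trim25 (635) and Trim12c (632) overlapped one after the next, ahead of Trim34a (450.5), Trim26 (333), Trim14 (234) and Trim12a (233), the last 2 overlapping.

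Without IFN-beta the order per kb was different, with Trim30d near the bottom. In libraries labelled Morrbid-/- it ran Trim30a (102), Trim12c (77.3), Trim34a (62.0), Trim12a (53.5), Trim25 (43.1), Trim26 (39.98), Trim21 (33.0), Trim30d (15.7) and Trim14 (15.4). The ranges of Trim34a and Trim12a overlapped, as did those of Trim25 and Trim26 and of Trim30d and Trim14. In wild type it ran Trim30a (81.3), Trim12c (69.1), Trim34a (46.2), Trim12a (45.9), Trim26 (38.1), Trim25 (36.8), Trim21 (23.6), Trim14 (17.1) and Trim30d (11.1). There Trim30a and Trim12c overlapped, as did Trim34a and Trim12a and Trim26 and Trim25.

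The remaining TRIM genes were called at about the share of all genes. Without IFN-beta, 22 others were tested and 0 were called, beside 0.635% of all genes. Those with the smallest p were Trim56, a ligase linked to cytosolic nucleic acid sensing, and Pml, the TRIM protein that builds nuclear bodies. Trim56 averaged 215.7 ± 14.8 normalized counts in libraries labelled Morrbid-/- and 169.4 ± 11.2 in wild type (SD, n = 3 each; log2 difference 0.35, limma adjusted p = 0.439). Pml averaged 121 ± 20.0 and 91.2 ± 6.86 in those genotypes (0.39, adjusted p = 0.606). The median log2 difference of the 22 was 0.04.

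With IFN-beta, 25 other TRIM genes were tested, and Trim41 alone passed, higher in the libraries labelled Morrbid-/-. That is 4% of them, beside 5.25% of all genes called higher. It averaged 88.2 ± 13.7 normalized counts there and 61.0 ± 13.6 in wild type (SD, n = 4 each), with overlapping groups (log2 difference 0.54, SE 0.17; limma adjusted p = 0.0421). The call was lost without Morrbid-/- replicate 1 (adjusted p = 0.0748), 2 (0.167) or 3 (0.084), or wild-type replicate 1 (0.103) or 3 (0.136). It was also lost by DESeq2, without a filter, without the trend, in one fit of all 14 libraries and with the 16S rRNA covariate. The contrast between stimulations called 0 of 22, beside 1.33% of all genes, with Trim56 at -0.40 (adjusted p = 0.0612) and Pml at -0.36 (adjusted p = 0.199).

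The interferon receptor pathway, with factors and regulators that include the interferon-induced Irf1, was followed through 11 listed genes, all of them tested. Without IFN-beta, 4 of 11 (36.4%) were higher in the libraries labelled Morrbid-/- and 0 were lower, beside 0.538% and 0.0969% of all genes. The median log2 difference was 0.29. The receptor chains and kinases were not called. Ifnar1 and Ifnar2 each differed by 0.01 (limma adjusted p = 0.988 and 0.994), Jak1 by -0.07 (0.963) and Tyk2 by -0.01 (0.993). Irf1, an interferon-induced transcription factor, averaged 600.9 ± 47.8 normalized counts in libraries labelled Morrbid-/- and 395.4 ± 14.7 in wild type (SD, n = 3 each; log2 difference 0.60, limma adjusted p = 7.76e-04). Irf9, the DNA-binding subunit of ISGF3, differed by 0.54 (adjusted p = 0.0239) and Usp18, which removes ISG15 and restrains the receptor, by 1.34 (adjusted p = 0.0284). Irf9 was lost without any one of 5 of the 6 libraries, all but Morrbid-/- replicate 1 (adjusted p up to 0.396), and Usp18 without any one but wild-type replicate 1 (up to 0.199). Without a filter all 3 of these calls were lost, without the trend those of Irf1 and Irf9, and by DESeq2 that of Usp18.

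With IFN-beta, Irf2, which opposes Irf1 at shared DNA elements, was higher in the libraries labelled Morrbid-/- (2125 ± 133 normalized counts against 1830 ± 83.2 in wild type, log2 difference 0.21; limma adjusted p = 0.0221). Irf1 was lower there (2821 ± 115 against 3227 ± 141 in wild type, -0.19; adjusted p = 0.0245). Each is 1 of 11 (9.09%), beside 5.25% of all genes called higher and 4.84% called lower. The Irf2 call was lost without Morrbid-/- replicate 2 (adjusted p = 0.11) or wild-type replicate 1 (0.0736), and without a filter, without the trend, in one fit of all 14 libraries and with the 16S rRNA covariate. The Irf1 call was lost without Morrbid-/- replicate 1 (0.068) or 3 (0.0743), or wild-type replicate 2 (0.0653) or 4 (0.0665), and on rescaling to equal totals, without the trend and in one fit of all 14 libraries. The contrast between stimulations called 4 of 11 lower (36.4%, beside 0.892% of all genes) and 0 higher, among them Usp18 at -1.29 (adjusted p = 2.07e-07), Irf1 at -0.79 (1.07e-05) and Irf9 at -0.53 (0.0047), the last of which was lost without the trend. The members' own values lie beside these at -0.58 to 0.23, and their dependence on these factors was not tested. The SE of the Usp18 contrast was 0.13, below the 0.30 of its difference without IFN-beta alone. The p-values of the contrasts of these 11 genes can therefore be too small.

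Of 36 listed partners and substrates of TRIM proteins, 32 were tested without IFN-beta, and 1 was called, higher (3.12%, beside 0.538% of all genes). Ifih1, the RNA sensor MDA5, averaged 52.1 ± 7.73 normalized counts in libraries labelled Morrbid-/- and 24.6 ± 6.45 in wild type (SD, n = 3 each), apart by 1.07 on the log2 scale (adjusted p = 0.0266 by limma). That call was lost without any one of the 3 Morrbid-/- libraries or wild-type replicate 3, with an adjusted p up to 0.211, and also without a filter and without the trend. With IFN-beta, 34 were tested, 3 were higher in the libraries labelled Morrbid-/- (8.82%, beside 5.25% of all genes) and 0 were lower (beside 4.84%), a share called near the 10.1% of all genes in either direction.

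Of these 3, Ube2l6 and Isg15 belong to the ISG15 system, in which Trim25 is a ligase. A relation of their values to those of Trim25 was not tested. Ube2l6, the enzyme that carries ISG15 to its ligases, averaged 518.4 ± 51.6 normalized counts in libraries labelled Morrbid-/- and 320.1 ± 67.9 in wild type (SD, n = 4 each; log2 difference 0.71, limma adjusted p = 1.75e-04). Isg15, the ubiquitin-like modifier itself, averaged 246.1 ± 27.9 and 157.5 ± 13.4 in those genotypes (0.64, adjusted p = 2.72e-04). Irf7, a transcription factor of interferon genes, averaged 5199 ± 551 and 4127 ± 187 (0.33, adjusted p = 0.00139). Without the trend the calls of Ube2l6 and Irf7 were lost, and in one fit of all 14 libraries that of Irf7. Ube2l6 and Isg15 were under the minimum mean without IFN-beta and so have no contrast between stimulations. That contrast was called lower for 2 of 32 partners (6.25%, beside 0.892% of all genes), Ifih1 at -1.10 (adjusted p = 1.22e-04) and Ddx58, the RNA sensor RIG-I that Trim25 ubiquitinates, at -0.55 (adjusted p = 0.0217). The Ddx58 call was lost without Morrbid-/- replicate 2 (adjusted p = 0.1) or wild-type replicate 1 (0.0713) of the libraries without IFN-beta, and without a filter, without the trend and on quantile normalization. For Ifih1 the SE of the contrast (0.16) was below that of its difference without IFN-beta alone (0.24), so its p-value can be too small.

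The genes most like each member were taken from the table with IFN-beta, as the 2 of at least 50 mean normalized counts and no TRIM symbol with the highest Pearson correlation over its 8 libraries. The correlation is a description over libraries that share their processing and differ in genotype. Each 2 were picked from 7267 genes over only 8 libraries, a choice that favours high correlations, and no test was run. Trim30d was closest to Ubap2 (0.992) and Snx18 (0.983), Trim25 to Ubr2 (0.975) and A930024E05Rik (0.969), and Trim26 to Uqcrc1 (0.973) and Ube2r2 (0.956). Trim34a was closest to Tfb2m (0.966) and Bcl2l11 (0.952), Trim30a to Hdac7 (0.963) and Ndfip1 (0.962), and Trim12c to Ufc1 (0.962) and Ddx1 (0.952). Trim12a went with Ppa2 (0.953) and Icam2 (0.937), Trim14 with Pgm3 (0.939) and Hspa13 (0.939), and Trim21 with Cnp (0.935) and Arhgef6 (0.935). No gene was named for more than 1 member.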

How the data were processed

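Total RNA of the 14 libraries had been made from 100 ng with a stranded kit and read as 75-base pairs, per the labels' protocols. For either stimulation the authors deposited 1 table of a signal, the normalized count. Builds named without a role in the submitters' processing notes are mm10 and GRCm38, and tools are featureCounts, STAR 2.5, DESeq2 and Trimmomatic. The annotation release, strand setting and filters were not given in the sources used here. Deposited values of a library were multiples of a single step, and dividing by it gave whole reads, within 0.01, for 100% of values; intervals that rest on reads would cover counting error only, and none is given.

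Within a table, limma 3.58.1 (R 4.3.3) set the genotypes against each other, on log2(normalized count + 1) and using the mean-variance trend, for all genes whose mean was 10 or more. Adjusted p-values are Benjamini-Hochberg values over all genes tested, with a threshold of 0.05. Differences are the Morrbid-/- label minus wild type, and the scale understates changes of low genes. The contrast between stimulations came from 1 limma fit of all 14 libraries, with a single variance per gene over both stimulations. On the recovered reads, edgeR 4.0.16 called 59 genes without and 1011 with IFN-beta, and DESeq2 1.42.0 was also run. The fits were also run on simulated data, with changes larger than any seen in the members, so power at the members' sizes was not tested. Other alternatives were pseudocounts, filters, scalings, limma settings, a 16S rRNA covariate, a replicate block and leaving out each library. RefSeq (GRCm38.p6) gave coordinates and promoters, and GENCODE transcripts of GRCm38 gave exon lengths and shared stretches.

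The members, gene lists and tests were chosen with earlier results of these data known. All 9 members are named whatever their result. In the lists of other TRIM genes, of partners and substrates, and of the interferon receptor pathway, the genes past the threshold are named by p, or else the 2 with the smallest p. Values of 1 gene named by this rule are not reported here; the counts include it.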

Additional observations from a re-analysis of the deposited data

Results flagged for a closer look

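With IFN-beta, Trim14 had 869.6 normalized counts in wild-type replicate 1, far below the other wild-type libraries, which lay from 1051 to 1083. The gap to the nearest library was 0.847 of the group's range, above Dixon's critical value for 4 libraries. The sum of Trim12a and Trim12c was 3591 in wild-type replicate 2, against 3746 to 3766 in the other wild-type libraries (gap 0.881 of the range). These were 2 of 44 groups looked at, and about 1 group in 20 is singled out by chance.

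The genotype effect differed between stimulations, by limma over all 14 libraries, for Trim34a with a contrast of -0.58, beside Usp18 (-1.29), Ifih1 (-1.10), Irf1 (-0.79), Ddx58 (-0.55) and Irf9 (-0.53). In each of these genes the difference of libraries labelled Morrbid-/- minus wild type was lower with IFN-beta than without it.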

How the results depend on the processing

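Over the 9 members and 3 comparisons, 594 values were recomputed under alternatives. Of these, 565 kept both sign and side of the threshold, 8 lost the call, 13 gained one and 8 changed sign. Without IFN-beta, 0 members were called; this became 1 with the replicate block (Trim30a) and 3 with one fit of all 14 libraries (Trim30d, Trim34a and Trim21), and stayed 0 on leaving out each library. With IFN-beta, the 1 call (Trim25) became 0 without a filter, without the trend, with one fit of all libraries and with the 16S rRNA share as covariate, 2 with rescaling to equal totals, and 0 to 1 on leaving out each library. For the contrast, the 1 call became 4 with the replicate block, 2 with the 16S covariate, 2 by DESeq2 and 1 to 3 on leaving out each library.

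Among all genes without IFN-beta (50 higher and 9 lower), the counts were 14 and 15 without a filter, 13 and 4 without the trend, 94 and 75 with the block, and 101 and 16 with one fit. Lower calls were 5 at a mean of at least 50 and 32 with the 16S covariate. Leaving out each library gave 31 to 52 and 6 to 23. With IFN-beta (523 and 482), they were 309 and 283 without a filter, 171 and 134 without the trend, 301 and 253 with one fit, 730 and 344 with rescaling to equal totals, and 321 to 555 and 288 to 466 on leaving out each library. For the contrast (40 and 81), they were 15 and 51 without the trend, 148 and 163 with the block, and 24 to 47 and 71 to 98 on leaving out each library.

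Signs changed with IFN-beta for Trim30a (0.02 on rescaling to equal totals, 0.09 on quantile normalization), Trim14 (-0.02 with the 16S covariate, -0.03 without wild-type replicate 1) and Trim21 (0.00 without wild-type replicate 4, and -0.11 to 0.00 over the libraries left out). The contrast of Trim25 went to 0.08, 0.01 and 0.01 without Morrbid-/- replicate 1 or wild-type replicate 3 of the libraries without IFN-beta, or wild-type replicate 2 of those with it, in a range of -0.1 to 0.08. Of the sums with IFN-beta, that of all 5 copies turned to 0.02 on rescaling. On leaving out each library, that of Trim30a and Trim30d ran from -0.01 to 0.02, that of Trim12a and Trim12c from -0.15 to -0.09 and that of all 5 from -0.03 to -0.01. The causes of these shifts were not tested.

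Whether same-numbered libraries are pairs could not be settled, and the main tests treat them as unpaired. Their deviations correlated by -0.02 to 0.2 without and 0.00 to 0.14 with IFN-beta. Libraries of unlike number correlated by -0.2 to 0.06 without and -0.08 to 0.04 with it. Of the Morrbid-/- libraries, 2 of 3 without and 3 of 4 with IFN-beta were closest to their own number. The replicate block called 730 genes higher and 691 lower with IFN-beta. Libraries without IFN-beta held fewer reads and fewer replicates, and whether that accounts for the number of calls there was not tested.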

Other observations

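Copies of the cluster outside the 9 members were chosen for description after their values were seen. Trim30c had 7261, 7874, 7606 and 7611 normalized counts in libraries labelled Morrbid-/- and 7062, 7114, 7665 and 8272 in wild type with IFN-beta, more than Trim30d. Without IFN-beta it had 3, 4 and 15 reads in libraries labelled Morrbid-/- and 0, 2 and 0 reads in wild type, under the minimum mean for testing. Trim34b, which shares stretches with Trim34a, had 7, 3 and 13 reads in libraries labelled Morrbid-/- and 1, 1 and 2 reads in wild type without IFN-beta. With IFN-beta it had 13.7, 17.4, 12.6 and 22.8 normalized counts in libraries labelled Morrbid-/- and 23.6, 29.7, 19.9 and 28.3 in wild type. In the fit with no filter, the contrast between stimulations was -2.55 (limma adjusted p = 0.0121) for Trim34b and -2.34 (adjusted p = 0.0199) for Trim30c, against -0.17 (adjusted p = 0.93) for Trim30b. Trim5, which was tested, had a contrast of -0.12 (adjusted p = 0.866). In the fit with no filter, Trim34b (limma adjusted p = 0.463) and Trim30c (0.654) did not pass the threshold between genotypes without IFN-beta. These values rest on few reads.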
